A study of Mus musculus with 28 samples.

Results

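Germ cells of Stra8 knockout (KO) mice collected 18 h after retinoic acid were compared with germ cells of wild-type (WT) mice collected 12 h after it. The comparison asks whether KO cells at the later time resemble an earlier WT state or differ from it. The libraries were chosen by their labels, 2 from KO mice at 18 h and 2 from WT mice at 12 h, or 4 of the 28 libraries of the series. This pair of genotype and time was proposed with expression values of these same libraries known, so its counts of calls are descriptions and not independent evidence. The mice were of mixed C57BL/6 and 129s4/SvJae background. All were given WIN 18,446, a blocker of retinoic acid synthesis that holds spermatogonia in step. The KO 18 h and WT 12 h mice then received an injection of retinoic acid, and testis cells were sorted for the PIWIL2-eGFP reporter. KO mice at 12 h and WT mice at 18 h complete a square of 2 genotypes and 2 times. KO and WT mice at 0, 48, 72, 96 and 120 h are used where stated. The deleted part of Stra8, the age of the mice and the number of animals in a library are not stated in the labels. Genotype and time both differ between the groups compared, and within this comparison alone they cannot be told apart.

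As background, retinoic acid starts the differentiation of spermatogonia, the mitotic germ cells of the testis. It induces Kit, a receptor of differentiating spermatogonia, and Stra8. STRA8 binds DNA, is required for germ cells to begin meiosis, and acts on promoters with a short CNCCTCAG motif. Another pathway matters below: SREBP factors bind sterol regulatory elements and switch on the enzymes of cholesterol synthesis when sterols are scarce.

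Promoters of 4 genes that were lower in KO 18 h cells are shown because these genes recur below and their promoters hold 1 of 2 motifs searched on both strands. Each window runs from 250 bases before to 50 bases after a transcription start in RefSeq (GRCm38.p6), 5′ to 3′ along the gene, with the motif in capitals. The motif is CNCCTCAG in the first 3 and the sterol regulatory element TCACNCCAC in Hmgcs1. It begins 226 bases before the start in E2f2 (chr4:136172024-136172323, + strand), and 83 bases before it in Ccne1 (chr7:38107441-38107740, - strand), where it reads on the opposite strand. It begins 111 bases before the start in Slc9a5 (chr8:105348008-105348307, + strand) and 137 before it in Hmgcs1 (chr13:119690101-119690400, + strand).
E2f2: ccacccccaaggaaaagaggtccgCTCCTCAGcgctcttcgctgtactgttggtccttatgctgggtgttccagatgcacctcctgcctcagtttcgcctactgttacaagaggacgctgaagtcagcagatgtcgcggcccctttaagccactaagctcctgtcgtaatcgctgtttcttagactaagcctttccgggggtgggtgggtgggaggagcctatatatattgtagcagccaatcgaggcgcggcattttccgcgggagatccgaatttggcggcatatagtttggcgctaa
Ccne1: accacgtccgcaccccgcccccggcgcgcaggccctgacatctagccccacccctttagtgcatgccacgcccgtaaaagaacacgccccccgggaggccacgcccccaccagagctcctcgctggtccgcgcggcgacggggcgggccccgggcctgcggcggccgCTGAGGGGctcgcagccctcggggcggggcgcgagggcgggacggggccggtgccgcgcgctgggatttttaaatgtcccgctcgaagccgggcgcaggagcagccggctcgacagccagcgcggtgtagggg
Slc9a5: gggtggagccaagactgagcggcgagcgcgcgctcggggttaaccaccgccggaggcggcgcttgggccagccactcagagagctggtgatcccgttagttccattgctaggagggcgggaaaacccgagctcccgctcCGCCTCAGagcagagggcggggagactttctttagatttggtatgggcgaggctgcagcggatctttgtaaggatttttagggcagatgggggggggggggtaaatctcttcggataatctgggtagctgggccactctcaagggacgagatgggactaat
Hmgcs1: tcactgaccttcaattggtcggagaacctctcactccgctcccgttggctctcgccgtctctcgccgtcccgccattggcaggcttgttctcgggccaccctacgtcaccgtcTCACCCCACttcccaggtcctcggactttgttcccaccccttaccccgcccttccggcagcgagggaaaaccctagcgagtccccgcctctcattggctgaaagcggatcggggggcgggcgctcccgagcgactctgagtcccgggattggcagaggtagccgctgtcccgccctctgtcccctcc
CNCCTCAG was found in 24 of 187 windows (12.8%) of genes lower in KO 18 h cells and in 20 of 273 (7.33%) of genes higher there. It was found in 9.05% of the windows of all genes tested, of which 11364 had a RefSeq window. TCACNCCAC was found in 1 of 19 windows of cholesterol synthesis genes (5.26%), the Hmgcs1 window shown, and in 1.18% of those of all genes tested. Among genes lower in KO 18 h cells it was in 1.07% of windows, and among genes higher there in 0.733%. These shares describe letters in the windows, not binding.

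The KO 18 h libraries held 5967615 and 4561373 reads in genes, and the WT 12 h libraries 10135820 and 6515288. Levels are given as CPM, reads scaled to library size with TMM factors, in the order replicate 1 and replicate 2. Sums of cell type markers, and levels of Ctsl and of single macrophage and leukocyte markers, are CPM over library totals without TMM factors. Germ cell markers summed to 4838 and 4974 CPM in KO 18 h and 4581 and 5057 CPM in WT 12 h cells, and Piwil2 was the highest of the 10 in both. Mitochondrial genes took 8.56 and 6.50% of reads in KO 18 h against 3.06 and 6.68% in WT 12 h libraries. Sums of 18 Sertoli cell markers were 204 and 209 CPM in KO 18 h against 151 and 191 CPM in WT 12 h libraries. Those of 12 peritubular myoid and stromal markers were 161 and 139 CPM against 107 and 116 CPM, so both sums were higher in KO 18 h cells without overlap. Most of each Sertoli sum was Ctsl, with 117 and 135.5 CPM in KO 18 h against 102 and 101 CPM in WT 12 h libraries. Sums of the other Sertoli markers overlapped. Of the Sertoli markers edgeR called 0 of 18 (1 at an unadjusted p under 0.05; DESeq2 called 0). Of the myoid and stromal markers it called 0 of 10 tested (4 unadjusted; DESeq2 0). Of 9 endothelial markers tested 1 was higher, Eng, with 10.1 and 9.63 CPM in KO 18 h against 2.20 and 3.71 CPM in WT 12 h cells (1.76 ± 0.46; edgeR adjusted p = 0.0407), and the call was lost with any 1 of the 4 libraries left out. The 10 endothelial markers in the table summed to 73.6 and 67.7 CPM in KO 18 h against 80.0 and 60.6 CPM in WT 12 h libraries, which overlap. The part of these cell types and of mitochondrial reads in the results was not tested. Fewer cells of a type and less RNA per cell cannot be told apart in sorted bulk cells.

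Stra8 (ENSMUSG00000029848.11, chromosome 6, 34920163 to 34939344, + strand, GRCm38) had 16.9 and 21.9 CPM in KO 18 h cells against 722 and 1049 CPM in WT 12 h cells. It was lower by a log2 fold change of -5.51 ± 0.89 (SE, as for all values with ± below; Benjamini-Hochberg adjusted p = 0.00449 by edgeR). KO 12 h cells had 31.0 and 26 CPM and WT 18 h cells 737 and 815 CPM, so the KO libraries held few Stra8 reads at either time. With 1 library left out, the edgeR adjusted p was 0.0964 without KO 18 h replicate 1 and 0.0576 without KO 18 h replicate 2. It was 0.0173 without WT 12 h replicate 1 and 0.0293 without WT 12 h replicate 2. Within 10 Mb of Stra8 4 of 115 genes tested were called (3.48%), beside 2.57% of all genes.

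Of 17519 genes tested, 280 were higher and 171 lower in KO 18 h than in WT 12 h cells at an edgeR adjusted p under 0.05. That is 2.57% of all genes, with 1.6% higher and 0.976% lower. The median log2 fold change was 1.60 among the higher and -1.21 among the lower genes. Both KO 18 h libraries lay on the same side of both WT 12 h libraries for all 451, as they did for 50.3% of all genes tested. The count was 108 without KO 18 h replicate 1, 154 without KO 18 h replicate 2, 102 without WT 12 h replicate 1 and 127 without WT 12 h replicate 2. In that order the 171 lower genes became 14, 32, 22 and 52. A set of 50 genes, 41 higher and 9 lower, was called in all 4 of these fits.

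Among WT times, the count of genes called against KO 18 h cells was smallest at 12 h. Against WT at 0, 12, 18, 48, 72, 96 and 120 h it was 1480, 451, 726, 1669, 2774, 4293 and 4702 genes, or 8.45, 2.57, 4.14, 9.53, 15.8, 24.5 and 26.8% of those tested. These comparisons share the KO 18 h libraries. The distance over all genes did not separate 12 from 18 h. As the SD over genes of the difference in log2 CPM between 2 libraries, it was 0.724 to 0.824 between KO 18 h and WT 12 h and 0.685 to 0.822 between KO 18 h and WT 18 h. It was 0.755 to 0.926 for WT 0 h, 0.842 to 0.874 for WT 48 h and 1.06 to 1.13 for WT 120 h. Between KO 18 h and KO 12 h libraries it was 0.515 to 0.647, below every distance from a KO 18 h to a WT library. For scale, KO 12 h against WT 12 h cells gave 190 higher and 17 lower genes (1.18% in all, 1.08% higher, 0.097% lower).

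**Figure D1:**
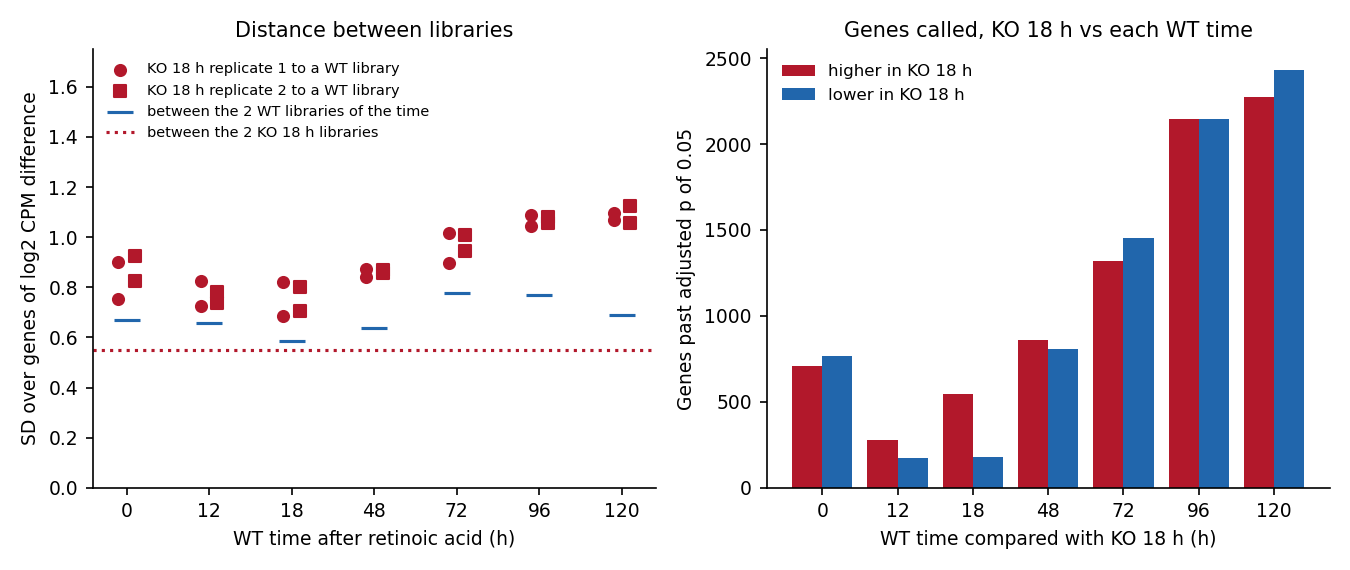
Left, distance of each KO 18 h library (circles, replicate 1; squares, replicate 2) from each WT library by WT time in hours, as the SD over genes of the log2 CPM difference; blue bars give the distance between the pair of WT libraries of a time and the dotted line that between the KO 18 h libraries. Right, genes higher (red) and lower (blue) in KO 18 h than in WT at each time; the 451 genes at 12 h are the smallest count, while distances to WT 12 h (0.724 to 0.824) and WT 18 h (0.685 to 0.822) overlap.

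The genes higher in KO 18 h cells by the most included several that WT 12 h cells barely expressed. The keratin gene Krt75 had 4.53 and 10.1 CPM in KO 18 h and 0.1 and 0 CPM in WT 12 h cells. Its fitted log2 fold change of 6.51 ± 1.00 (edgeR adjusted p = 8.89e-04) rests on WT libraries with 1 read or none, so its size depends on the prior count of the fit. Cass4, which encodes an adhesion scaffold protein, had 15.8 and 10.1 CPM in KO 18 h against 1.1 and 1.70 CPM in WT 12 h cells (3.24 ± 0.45; edgeR adjusted p = 3.46e-04). Others by size were the potassium channel gene Kcnh1 (3.49 ± 0.71), the PD-1 ligand gene Pdcd1lg2 (3.42 ± 0.73), the transcriptional repressor gene Zhx2 (3.33 ± 0.63), the mesothelin gene Msln (3.18 ± 0.57) and the adrenergic receptor gene Adra2a (3.03 ± 0.55). The Notch ligand gene Dll1 (3.31 ± 0.68) and the lysosomal transporter gene Slc15a3 (3.82 ± 0.75) were also among these. Exons of a neighbouring gene overlap those of Dll1 over 20.5%, of Slc15a3 over 28.1% and of Cass4 over 21.2% of their length. Cd5l, known from macrophages, had 8.36 and 2.91 CPM in KO 18 h against 0.400 and 0.154 CPM in WT 12 h cells (4.18 ± 0.88), and the lymphatic receptor gene Lyve1 6.10 and 4.48 CPM against 0.400 and 0.618 CPM (3.37 ± 0.80). The 11 macrophage and leukocyte markers in the table summed to 3.69 and 3.95 CPM in KO 18 h against 6.22 and 4.76 CPM in WT 12 h cells. Cd68 had 1.68 and 0.439 CPM in KO 18 h against 4.14 and 1.38 CPM in WT 12 h cells. C1qb and C1qc were at 0 in all 4 libraries. In both WT 12 h libraries 7 markers were at 0, against 2 in both KO 18 h libraries. Ptprc, Lyz2, C1qa, Cd74 and Cx3cr1 had reads in KO 18 h cells alone, at 0.658 CPM or less. Of the genes in this paragraph, Krt75 and Cass4 stayed called with each of the 4 libraries left out, and the others lost the call without at least 1 of them.

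**Figure D2:**
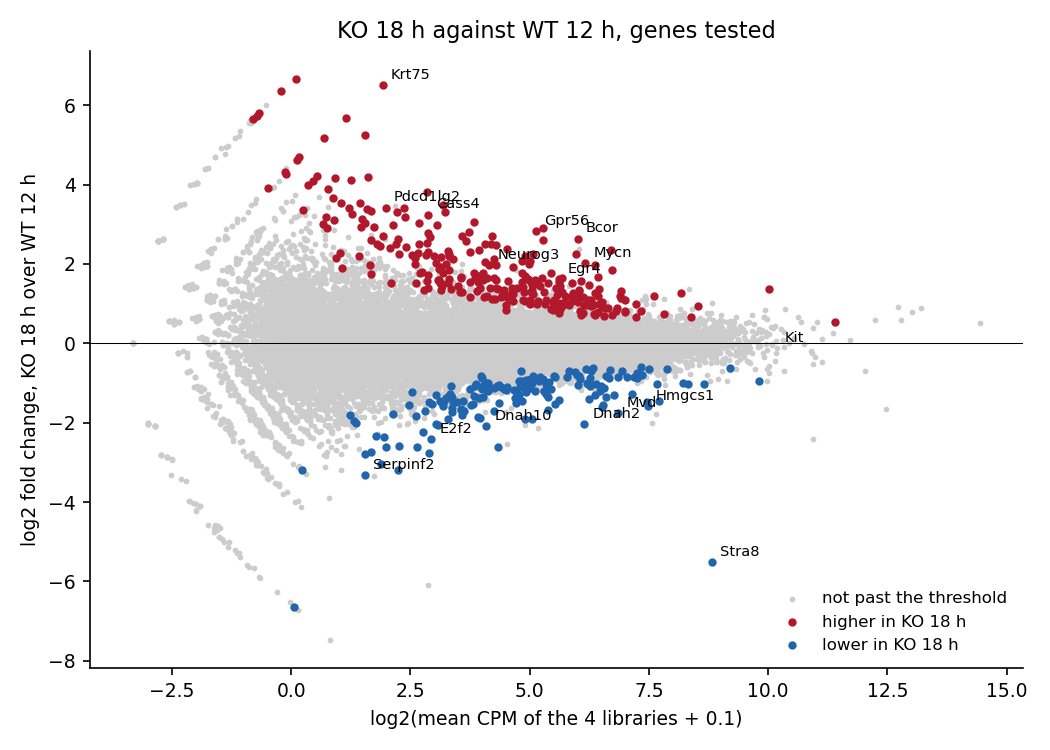
Log2 fold change of KO 18 h over WT 12 h cells against log2 of the mean CPM of the 4 libraries plus 0.1, for the 17519 genes tested. Red points are the 280 genes higher and blue points the 171 lower in KO 18 h cells; Stra8 lies apart at a high level and -5.51, while Kit lies near 0.

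One group of genes stood high in KO cells at both times and low in WT cells at both times. Mycn, a growth-promoting factor of the Myc family, had 114 and 116 CPM in KO 18 h against 25.6 and 31.2 CPM in WT 12 h cells (2.02 ± 0.20; edgeR adjusted p = 3.51e-06). KO 12 h cells had 95.6 and 94.2 CPM and WT 18 h cells 25.1 and 23.6 CPM. At 0 h Mycn had 77.9 and 87.4 CPM in KO and 87.6 and 79.3 CPM in WT cells, so KO 18 h libraries lay above, and WT 12 h libraries below, all libraries at 0 h. Bcor, a corepressor of Polycomb complexes, had 108 and 113 CPM in KO 18 h against 21.0 and 14.2 CPM in WT 12 h cells (2.64 ± 0.28; edgeR adjusted p = 9.28e-06), and 166 and 138 CPM in KO and 170.1 and 102 CPM in WT cells at 0 h. Enc1, a kelch-repeat protein gene, had 120.2 and 144 CPM in KO 18 h against 34.7 and 32.8 CPM in WT 12 h cells (1.97 ± 0.25; edgeR adjusted p = 1.64e-04). At 0 h it had 409.8 and 345 CPM in KO and 354 and 327 CPM in WT cells, above all libraries at 12 and 18 h.

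Other genes of the same shape had varied roles. They included the junctophilin gene Jph4 (2.20 ± 0.25), the EGR corepressor gene Nab2 (1.84 ± 0.21) and the peroxisomal transporter gene Abcd2 (2.48 ± 0.34). The phospholipase gene Pla2g7 (2.49 ± 0.34) and the zinc-finger factor gene Sall3 (2.71 ± 0.43) were of this shape too. The angiomotin-like gene Amotl1 (1.77 ± 0.24) had 47.9 and 40.8 CPM in KO 18 h against 13.7 and 12.2 CPM in WT 12 h cells but 24.6 and 20.7 CPM in KO 12 h cells, and the oestrogen receptor gene Esr1 (2.51 ± 0.42) 9.06 and 6.27 CPM against 1.30 and 1.39 CPM but 3.86 and 3.31 CPM in KO 12 h cells. Neither passed between KO 12 h and WT 12 h cells (edgeR adjusted p = 0.113 for Amotl1 and 0.137 for Esr1). All of these, with Mycn, Bcor and Enc1, stayed called with each of the 4 libraries left out. Exons of Nab2 overlap a neighbouring gene over 35.7% of their length. From the 50 genes called in all 4 fits, and chosen after their values were seen, the adhesion receptor gene Gpr56 had 67.6 and 54.9 CPM in KO 18 h against 10.3 and 6.64 CPM in WT 12 h cells. The collagen receptor kinase gene Ddr1 had 169.8 and 178 CPM in KO 18 h against 38.6 and 28.9 CPM in WT 12 h cells. Not every gene of this kind was high before retinoic acid. Glipr2 had 115 and 91.6 CPM in KO 18 h against 22 and 21.5 CPM in WT 12 h cells, and 8.39 and 11.9 CPM in KO and 11.3 and 5.70 CPM in WT cells at 0 h. Dmkn, a secreted skin protein gene, had 12.7 and 9.86 CPM in KO 18 h against 1.60 and 1.08 CPM in WT 12 h cells, and 2.20 and 1.43 CPM in KO and 0.561 and 0.838 CPM in WT cells at 0 h. When the change from 0 h was compared between the genotypes, 20 genes differed (0.114%), as described in the closing observations.

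**Figure D3:**
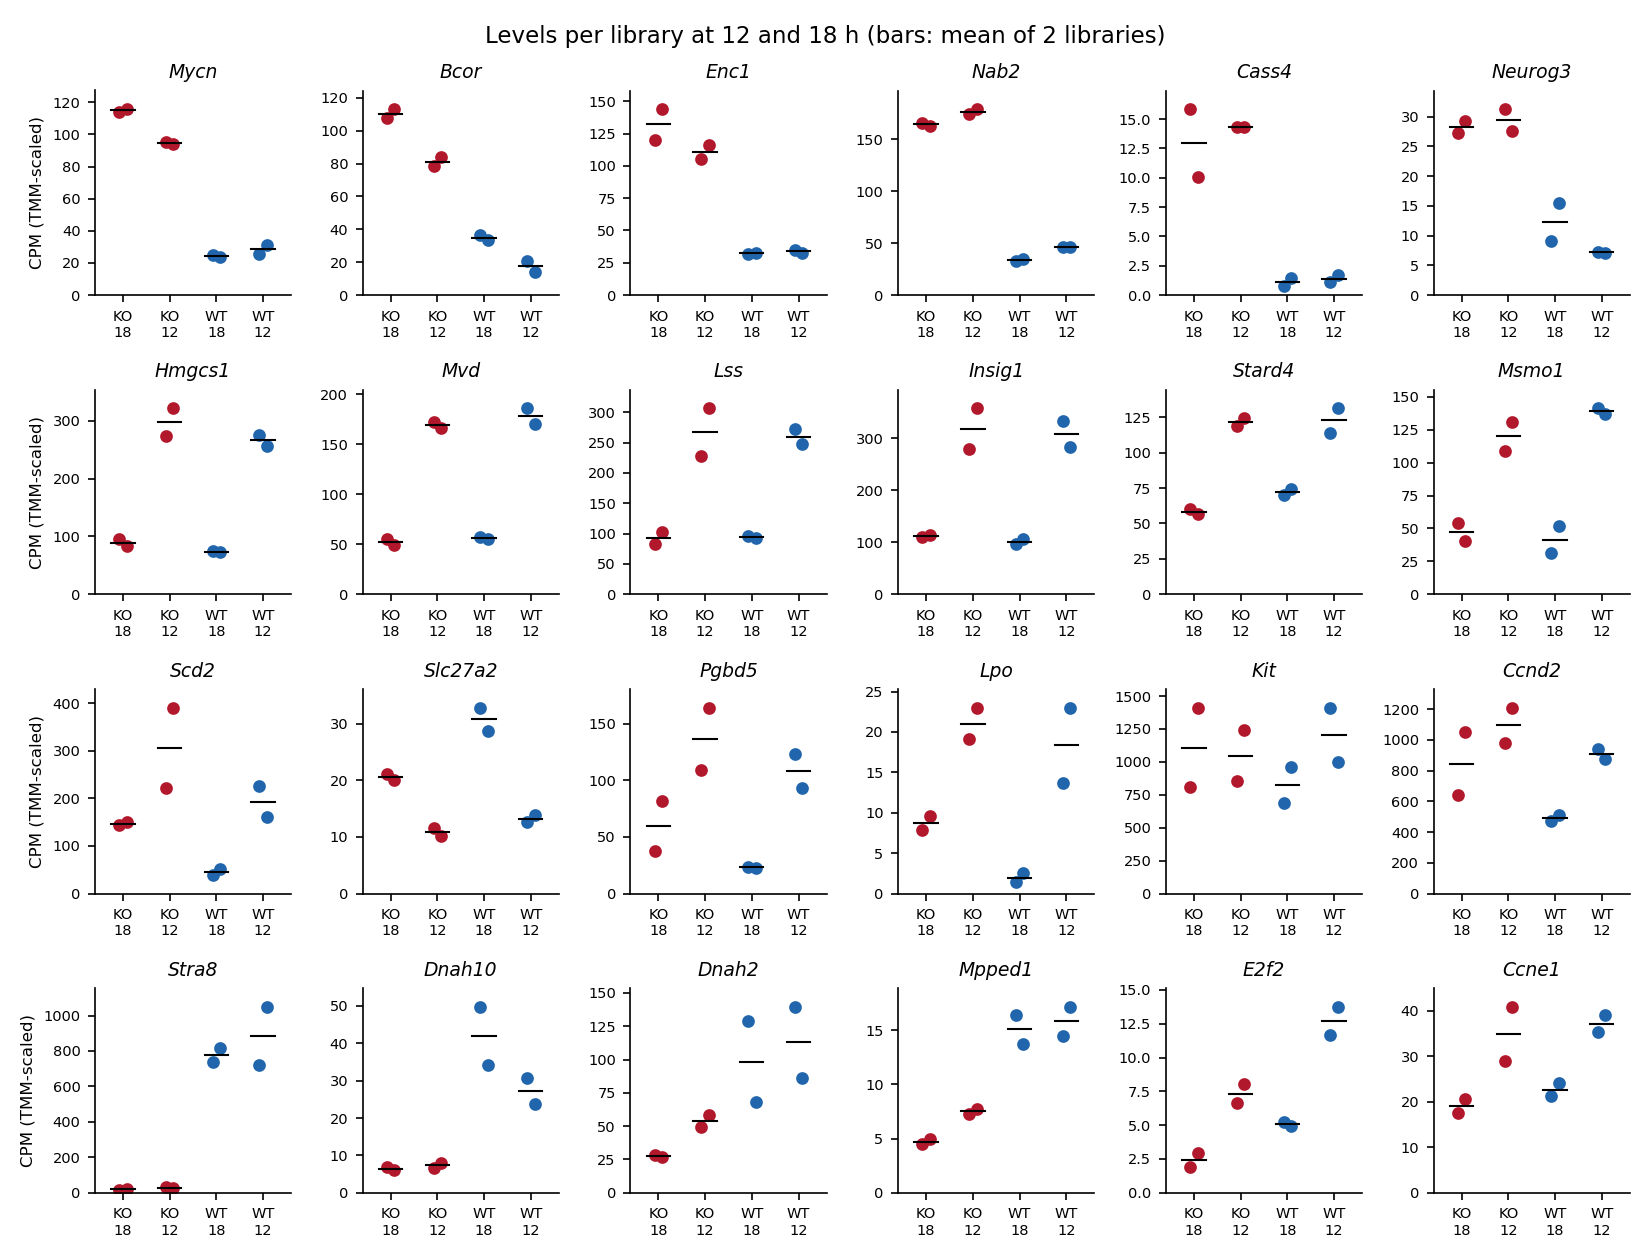
Levels in CPM per library (red, KO; blue, WT; bars, mean of 2 libraries) at 18 and 12 h. Top row, genes high in KO and low in WT at both times; second row, sterol genes, low at 18 h and high at 12 h in both genotypes; in the third row, genes whose KO 18 h level lay between WT 18 h and WT 12 h, with Kit and Ccnd2; bottom row, Stra8 and genes lower in KO 18 h than in WT 12 h cells.

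Genes of undifferentiated spermatogonia were in part of this shape. Of 31 measured members, 8 were higher (25.8%, against 1.6% of all genes), 0 lower and 23 did not pass, with a median log2 fold change of 0.97 over the list against -0.03 over all genes. The 8 included the progenitor factor gene Neurog3, with 27.2 and 29.3 CPM in KO 18 h against 7.20 and 7.11 CPM in WT 12 h cells (1.98 ± 0.33; edgeR adjusted p = 0.00139), and the zinc-finger factor gene Egr4, with 75.8 and 71.7 CPM against 21.2 and 26.7 CPM (1.63 ± 0.27). The others were the chromatin factor gene Utf1 (1.40 ± 0.29), the forkhead gene Foxc2 (1.60 ± 0.38), the LIM-homeobox gene Lhx1 (1.75 ± 0.42), the uridine phosphorylase gene Upp1 (0.98 ± 0.25), the tetraspanin gene Tspan8 (1.90 ± 0.51) and the ERK phosphatase gene Dusp6 (1.53 ± 0.30). Dusp6 had another shape, with 21.4 and 17.9 CPM in KO 18 h against 6.10 and 7.57 CPM in WT 12 h cells, 7.71 and 10.2 CPM in KO 12 h and 18.8 and 14.5 CPM in WT 18 h cells. At 0 h it had 42.1 and 37.1 CPM in KO and 48.6 and 43.8 CPM in WT cells. Its libraries at 18 h were thus above those at 12 h and below those at 0 h in both genotypes. The stem cell receptor genes Gfra1 (0.36 ± 0.28) and Ret (0.36 ± 0.36) and the factor gene Zbtb16 (0.66 ± 0.26) did not pass. Sall4, with 334 and 428 CPM in KO 18 h against 874 and 598 CPM in WT 12 h cells, missed the threshold on the lower side (edgeR adjusted p = 0.0509). The count of 8 became 3, 3, 1 and 3 without KO 18 h replicates 1 and 2 and WT 12 h replicates 1 and 2.

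Gene sets made from contrasts among the other libraries place these differences in time. Of 1204 genes lower in WT 18 h than in WT 0 h cells (6.87% of all genes), 148 were higher in KO 18 h than in WT 12 h cells (12.3%, against 1.6% of all genes) and 7 lower, with a median of 0.37. Of 889 genes higher in WT 18 h than in WT 0 h cells (5.07%), 36 were lower (4.05%, against 0.976% of all genes) and 8 higher, with a median of -0.21. The share called was thus above that of all genes in the direction opposite to the WT change for both sets. Of 193 genes higher in WT 48 h than in WT 18 h cells (1.1%), 48 were higher (24.9%) and 2 lower, with a median of 0.60. Of 103 genes lower in WT 48 h than in WT 18 h cells (0.588%), 2 were higher and 3 lower. Of 51 genes higher in KO 48 h than in WT 48 h cells (0.291%), 25 were higher (49%, and 8.93% of the 280) and 0 lower, with a median of 0.99. The 3 genes lower in KO 48 h than in WT 48 h cells (0.0171%) were not called. Between KO 0 h and WT 0 h cells edgeR called 0 genes (0%; 1193 at an unadjusted p under 0.05, and DESeq2 called 0). Without KO 18 h replicates 1 and 2 and WT 12 h replicates 1 and 2 in turn, the 148 became 62, 77, 57 and 50, and the 36 became 1, 5, 5 and 7. The 48 became 24, 34, 24 and 23, and the 25 became 17, 14, 10 and 13.

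Many genes of cholesterol synthesis were lower in KO 18 h than in WT 12 h cells. Of 21 measured, 10 were lower (47.6%, against 0.976% of all genes), 0 higher and 11 did not pass. All 21 had a fold change below 0, with a median of -1.0; this textbook list was added after the values were seen. Hmgcs1, the synthase that makes HMG-CoA and whose promoter is shown above, had 94.9 and 83.3 CPM in KO 18 h against 276 and 256 CPM in WT 12 h cells (-1.58 ± 0.20; edgeR adjusted p = 1.64e-04). KO 12 h cells had 273 and 322 CPM and WT 18 h cells 74.0 and 73.4 CPM. Mvd, the mevalonate diphosphate decarboxylase, had 54.9 and 49.5 CPM in KO 18 h against 186 and 170.1 CPM in WT 12 h cells (-1.77 ± 0.16; edgeR adjusted p = 9.97e-07), 173 and 166 CPM in KO 12 h and 56.9 and 55.5 CPM in WT 18 h cells. For both genes the 18 h libraries of either genotype lay together and below all 12 h libraries.

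The same order held for others of the 10. These included lanosterol synthase, Lss (-1.49 ± 0.23), and the enzyme genes Msmo1 (-1.56 ± 0.30), Mvk (-1.53 ± 0.30), Acat2 (-1.30 ± 0.29), Cyp51 (-1.20 ± 0.28), Nsdhl (-1.15 ± 0.25) and Hsd17b7 (-0.80 ± 0.17). Among 15 genes of SREBP control, uptake and export, 4 were lower (26.7%, against 0.976% of all genes) and 0 higher (against 1.6%). This list was also added after the values were seen. Among them Insig1, which holds SREBP back, had 110.4 and 113 CPM in KO 18 h against 334 and 284 CPM in WT 12 h cells, and the sterol carrier gene Stard4 59.9 and 56.5 CPM against 114 and 131 CPM. Both were likewise lower in every 18 h than in every 12 h library. The factor genes Srebf1 (-0.26 ± 0.22) and Srebf2 (-0.10 ± 0.28) did not pass. Of 11 genes of fatty acid synthesis edgeR called 0 (4 lower at an unadjusted p under 0.05; DESeq2 called 0).

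Within KO cells, 18 h against 12 h gave 7 lower genes (0.04%) and 0 higher (0%; 716 in either direction at an unadjusted p under 0.05; DESeq2 called 21 in all). The 7 were Mvk, Hmgcs1, Mvd, Lss, Insig1, Stard4 and the acetoacetyl-CoA synthetase gene Aacs. Of the 21 cholesterol genes 4 were thus called lower in KO 18 h than in KO 12 h cells (median -1.05), and 13 in WT 18 h than in WT 12 h cells (median -1.31). In KO cells Tm7sf2 (0.35 ± 0.57) and Ebp (0.10 ± 0.64), both low in level, had fold changes above 0 in that contrast. Between KO 18 h and WT 18 h cells edgeR called 0 of the 21 cholesterol genes, beside 4.14% of all genes, with a median of 0.25. Of the 10 lower against WT 12 h, 4 and 3 were called without KO 18 h replicates 1 and 2, and 5 and 7 without WT 12 h replicates 1 and 2. Mvd, Hmgcs1, Lss, Insig1, Stard4 and Aacs were called in all 4 fits.

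Genes of DNA replication leaned to the lower side. Of 48 DNA replication and G1/S genes, 4 were lower (against 0.976% of all genes), 1 higher (against 1.6%) and 43 did not pass. A fold change below 0 was found for 42 of the 48, against 52.3% of all genes, and the median was -0.41. E2f2, a factor that activates S-phase genes, had 1.92 and 2.91 CPM in KO 18 h against 11.7 and 13.8 CPM in WT 12 h cells (-2.41 ± 0.53; edgeR adjusted p = 0.0143). The cyclin gene Ccne1 had 17.6 and 20.6 CPM in KO 18 h against 35.3 and 39.1 CPM in WT 12 h cells (-0.96 ± 0.22), and the origin licensing gene Cdc6 44.8 and 53.1 CPM against 102 and 92.2 CPM (-0.99 ± 0.22). The ribonucleotide reductase gene Rrm2 had 20.9 and 21.1 CPM in KO 18 h against 44.6 and 52.0 CPM in WT 12 h cells (-1.20 ± 0.28). WT 18 h cells had 5.20 and 4.91 CPM of E2f2 and 21.2 and 24.1 CPM of Ccne1, and KO 12 h cells 6.61 and 8.01 and 29.1 and 40.9 CPM. In both genotypes the 18 h libraries of these genes were below the 12 h libraries. Chaf1b, a chromatin assembly subunit gene, was higher, with 111 and 123 CPM in KO 18 h against 68.9 and 49.4 CPM in WT 12 h cells (0.98 ± 0.22). None of the 4 lower calls held with any 1 of the 4 libraries left out; the edgeR adjusted p was 0.059 to 0.235 for E2f2 and 0.0743 to 0.25 for Ccne1. Of 40 mitosis genes edgeR called 0 (2 higher at an unadjusted p under 0.05; DESeq2 called 0).

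Genes of meiosis and of the response to retinoic acid gave few calls. Of 38 meiotic prophase genes edgeR called 0 (7 lower at an unadjusted p under 0.05; DESeq2 called 1 lower), with 28 below 0 and a median of -0.29. The recombinase gene Dmc1 had 27.2 and 30.7 CPM in KO 18 h against 40.4 and 43.1 CPM in WT 12 h cells (-0.53 ± 0.25; edgeR adjusted p = 0.305), and the cohesin gene Rec8 77.0 and 140.0 CPM against 72.6 and 111 CPM (0.24 ± 0.32). Among 24 retinoic acid pathway genes, 2 were lower (8.33%, against 0.976% of all genes) and 0 higher (against 1.6%). The 2 were Rdh11 and Stra8, the knocked-out gene itself. Rdh11, a retinal reductase gene, had 8.01 and 9.63 CPM in KO 18 h against 27.2 and 30.7 CPM in WT 12 h cells (-1.72 ± 0.33; edgeR adjusted p = 0.00536), with 25.1 and 34.0 CPM in KO 12 h and 5.89 and 10.9 CPM in WT 18 h cells. It lost the call without KO 18 h replicate 1 (edgeR adjusted p = 0.122) and without WT 12 h replicate 2 (0.0547). Cyp26a1, which degrades retinoic acid, had 11.5 and 25.8 CPM in KO 18 h against 26.9 and 45.7 CPM in WT 12 h cells, and the receptor gene Rarb 6.27 and 5.15 CPM against 10.1 and 11.7 CPM; neither passed. Of 16 genes of differentiating spermatogonia, Stra8 was the single call (6.25% lower, against 0.976% of all genes). Kit had 808 and 1407 CPM in KO 18 h against 1412 and 999.5 CPM in WT 12 h cells, and the cyclin gene Ccnd2 643 and 1048 CPM against 940.1 and 873 CPM, with overlapping libraries. At 0 h Kit had 27.9 and 37.5 CPM in KO and 22 and 65.2 CPM in WT cells, far below all libraries at 12 and 18 h.

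A further set was low in the libraries of KO cells at both times. The axonemal dynein gene Dnah10 had 6.79 and 6.05 CPM in KO 18 h against 30.8 and 23.8 CPM in WT 12 h cells (-2.08 ± 0.36; edgeR adjusted p = 0.00177). KO 12 h cells had 6.75 and 8.01 CPM and WT 18 h cells 49.8 and 34.1 CPM of it, and at 0 h the pairs overlapped, with 19.8 and 9.98 CPM in KO and 15.8 and 9.56 CPM in WT cells. A second dynein gene, Dnah2, had 28.4 and 26.7 CPM in KO 18 h against 139.6 and 86.5 CPM in WT 12 h cells (-2.04 ± 0.32; edgeR adjusted p = 0.0012), with 49.4 and 58.3 CPM in KO 12 h and 129 and 67.9 CPM in WT 18 h cells. Mpped1, a metallophosphoesterase domain gene, had 4.53 and 4.93 CPM in KO 18 h against 14.5 and 17.1 CPM in WT 12 h cells (-1.74 ± 0.28), with 7.30 and 7.73 CPM in KO 12 h and 16.4 and 13.8 CPM in WT 18 h cells. KO libraries of these 3 genes lay below WT libraries at both times, and between KO 12 h and WT 12 h cells Dnah10 was called (edgeR adjusted p = 0.00626) while Dnah2 (0.0948) and Mpped1 (0.0519) were not. With the sterol genes and Aacs they make up the 9 lower genes called in all 4 leave-out fits. Further lower genes by size were the serpin gene Serpinf2 (-3.32 ± 0.68), the phospholipase gene Pla2g4c (-2.78 ± 0.52) and the deubiquitinase gene Otub2 (-2.34 ± 0.56). These, and the sodium-proton exchanger gene Slc9a5 (-1.46 ± 0.27), lost the call without at least 1 of the 4 libraries. Of them only Otub2 had KO libraries of both times below all WT 12 and 18 h libraries. Serpinf2, Pla2g4c and Slc9a5 were lower at 18 than at 12 h in the libraries of both genotypes. KO 12 h libraries overlapped those of WT 18 h for Slc9a5 and lay above them for Pla2g4c and Serpinf2. Serpinf2 had 3.03 and 2.76 CPM in KO 12 h and 1.37 and 0.838 CPM in WT 18 h cells.

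Genes that changed in WT cells between 12 and 18 h, and were not called between KO 18 h and WT 12 h cells, are given by their levels. This choice used the KO 18 h libraries and favours genes with KO 18 h levels near those of WT 12 h. Their place between the WT times is therefore a description only. WT 18 h against WT 12 h cells gave 5 higher and 44 lower genes (0.28% in all, 0.0285% higher, 0.251% lower). Scd2, a fatty acid desaturase gene, had 143 and 150.1 CPM in KO 18 h, 38.8 and 51.8 CPM in WT 18 h and 225 and 159.7 CPM in WT 12 h cells. For the peroxidase gene Lpo the levels in these groups were 7.84 and 9.63, 1.37 and 2.51, and 13.7 and 23.0 CPM, and for the transposase-derived gene Pgbd5 38.0 and 82.0, 23.9 and 22.6, and 123 and 93.5 CPM. KO 18 h libraries of these 3 genes lay between those of WT 18 h and WT 12 h. The pseudogene Btnl7-ps had 8.71 and 12.8 CPM in KO 18 h, 4.71 and 3.35 CPM in WT 18 h and 13.7 and 12.4 CPM in WT 12 h cells. Of genes higher in WT 18 h cells, the aggrecan gene Acan had 20.2 and 17.2 CPM in KO 18 h, 36.4 and 30.4 CPM in WT 18 h and 14.8 and 15.4 CPM in WT 12 h cells. The fatty acid transporter gene Slc27a2 had 21.1 and 20.2, 32.9 and 28.7, and 12.6 and 13.9 CPM in the same groups, and Klhdc2, a kelch domain gene, 47.5 and 52.2, 54.0 and 57.7, and 30.7 and 34.8 CPM. These 3 were intermediate in KO 18 h cells as well.

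The opposite corner of the square, WT 18 h against KO 12 h cells, shares no library with KO 18 h against WT 12 h. It keeps the order of time and swaps the genotypes. It gave 390 higher and 836 lower genes (7% in all, 2.23% higher, 4.77% lower). Of the 836, 161 were higher in KO 18 h than in WT 12 h cells, which is 19.3% of the 836 and 57.5% of the 280, Mycn, Bcor and Jph4 among them. Another 24 were lower in both, 2.87% of the 836 and 14% of the 171, with Hmgcs1, Mvd and Lss among them. Of the 390, 22 were lower in KO 18 h than in WT 12 h cells, 5.64% of the 390 and 12.9% of the 171, among them Dnah10, Mpped1 and the ankyrin-repeat gene Ankrd13d. The 3 higher in both were Gli2, Serpine2 and Ptprk. Gli2, a Hedgehog pathway factor gene, had 11.3 and 14.1 CPM in KO 18 h against 4.0 and 4.94 CPM in WT 12 h cells, and 24.1 and 15.8 CPM in WT 18 h against 5.51 and 5.25 CPM in KO 12 h cells. Without KO 18 h replicates 1 and 2 and WT 12 h replicates 1 and 2 in turn, the 161 became 73, 81, 56 and 51. The 24 became 7, 8, 9 and 12, and the 22 became 3, 6, 5 and 7.

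**Figure D4:**
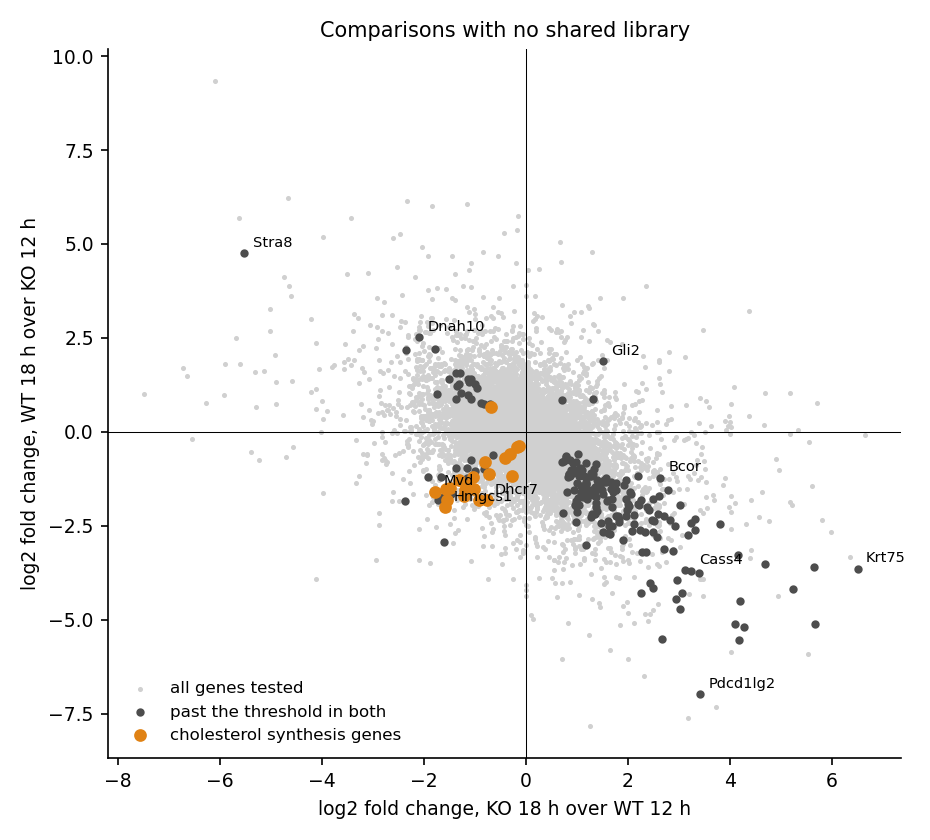
Log2 fold change of KO 18 h over WT 12 h cells (horizontal) against that of WT 18 h over KO 12 h cells (vertical), which share no library. Dark points passed the threshold in both; 161 lie at the lower right, as Bcor does, 22 at the upper left, as Dnah10 does, and 24 at the lower left, where most of the cholesterol synthesis genes (orange) lie.

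The remaining lists gave 0 to 2 calls each. Their shares stand beside 1.6% of all genes called higher and 0.976% called lower. Of 24 genes of Wnt, Notch and BMP signalling 2 were higher (8.33%), Dll1 and the Notch target Hes1. Hes1 had 44.4 and 40.1 CPM in KO 18 h against 11.2 and 17.9 CPM in WT 12 h cells (1.55 ± 0.35). With 1 library left out the edgeR adjusted p was 0.0429 to 0.235 for Hes1 and 0.0196 to 0.14 for Dll1. Of 30 autophagy and lysosome genes 2 were higher (6.67%), Gabarapl1 (0.85 ± 0.19) and the lysosomal regulator gene Tfeb (1.33 ± 0.31). Of 19 circadian clock genes Bhlhe41 was higher (1.28 ± 0.27) and Cry2 lower (-0.85 ± 0.22), each 5.26% of the list. Ccnd1 (0.77 ± 0.17), the piRNA pathway gene Tdrd5 (0.81 ± 0.21) and the chaperone gene Hsp90ab1 (0.53 ± 0.14) were higher. They were the single calls of their lists of 15, 24 and 20 genes (6.67, 4.17 and 5%). A neighbouring gene overlaps the exons of Gabarapl1 over 28.3% and of Ccnd1 over 23.4% of their length. With each of the 4 libraries left out in turn, Gabarapl1, Bhlhe41 and Ccnd1 were called in 1 of 4 fits, and Tfeb, Cry2, Tdrd5 and Hsp90ab1 in 0 of 4. Under the 13 other alternatives, which include leaving out a KO 12 h or WT 18 h library, Cry2 and Hsp90ab1 each passed in 6. All 13 mitochondrially encoded genes and all 27 nuclear genes of oxidative phosphorylation had fold changes above 0, with medians of 0.60 and 0.32, beside the mitochondrial read shares given above. EdgeR called 0 of either (0 and 3 at an unadjusted p under 0.05; DESeq2 called 0). Of 25 immediate early, 19 p53 target, 19 glycolysis, 40 ribosomal protein and 20 Hox genes edgeR called 0 (5, 3, 5, 1 and 4 at an unadjusted p under 0.05; DESeq2 called 1, 0, 1, 0 and 0).

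**Figure D5:**
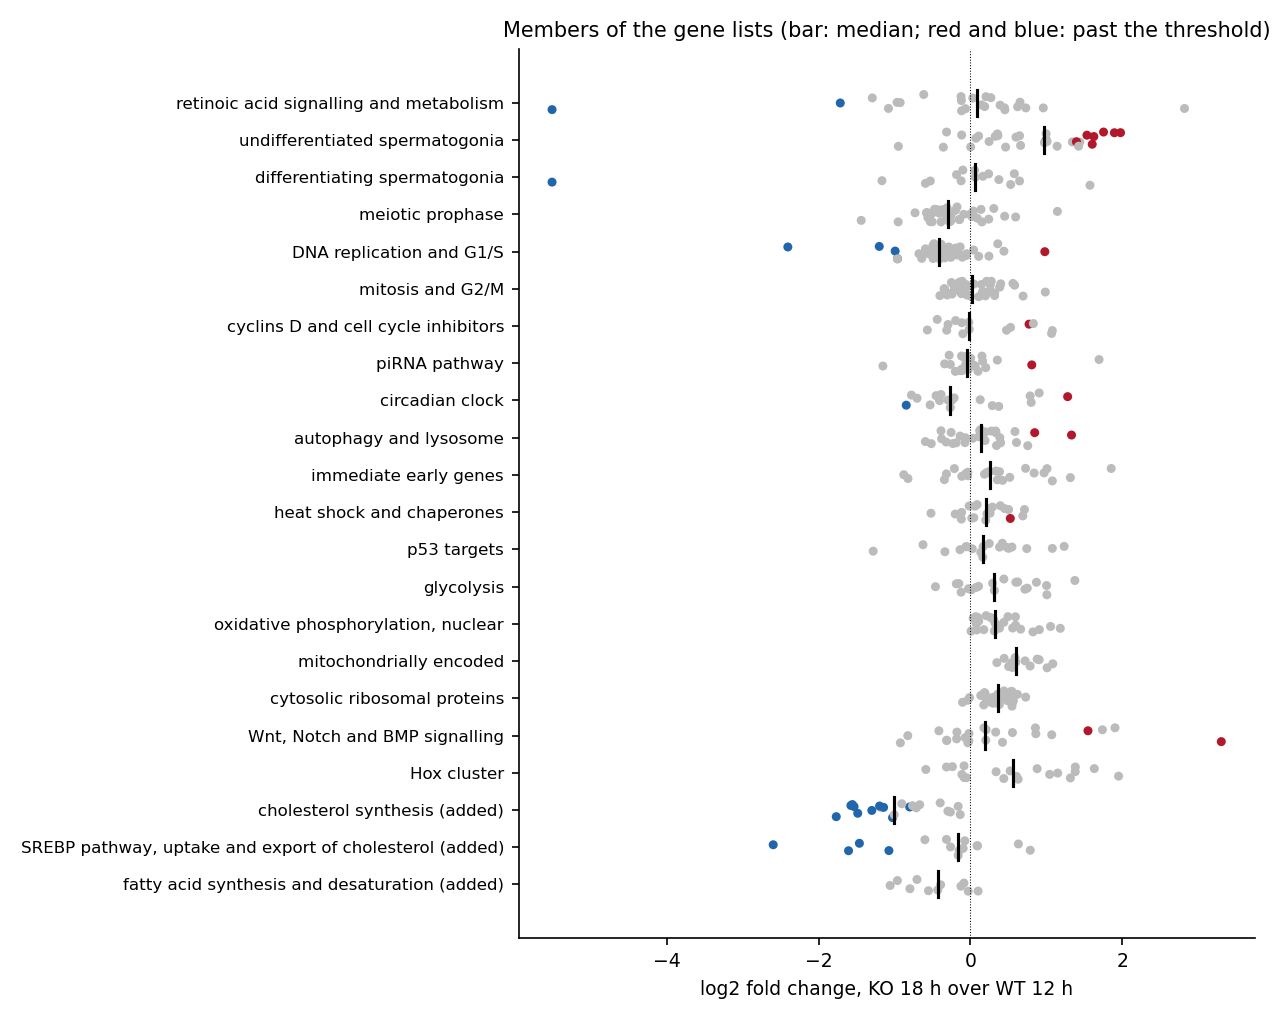
Log2 fold change of KO 18 h over WT 12 h cells for each gene of each list (1 point a gene; bar, median). Red and blue points passed the threshold; the undifferentiated list has 8 higher and a median of 0.97, and the cholesterol list, added after the values were seen, 10 lower and a median of -1.0.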

How the data were processed

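Poly(A) RNA of the sorted cells was sequenced on an Ion Proton, per the labels' protocols, with 2 libraries in each of 14 groups. The submitters' processing notes name Bowtie, TopHat, Cufflinks and build mm10. The sources used here do not give versions, the counter or whether it used strand. The authors deposited raw read counts by gene symbol. Other deposited tables, named FPKM by the authors, held CPM: 25 of 28 columns equalled counts over their total within 0.001 CPM, with the KO columns numbered the other way round. All 4 columns of the KO 18 h and WT 12 h libraries matched. Counts were used throughout, numbered as in the count tables.

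The table had 43280 rows; 27 whose names had become dates were dropped. Of the 43253 kept, 39354 matched 1 GENCODE gene of GRCm38, from which exon overlaps were computed. Counts were tested in R 4.3.3 with edgeR 4.0.16: its expression filter, TMM scaling, 14 group means over all 28 libraries, robust quasi-likelihood tests and Benjamini-Hochberg adjustment over 17519 genes, with a threshold of 0.05. The scripts were tested on simulated data. Library totals were 913055 to 10135820; 3 reads, the floor for a count of 0, are 0.296 to 0.658 CPM in the 4 libraries, for counting error only. Overlapping and antisense genes may share reads.

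The labels do not say that replicates are separate animals, so p-values measure only the spread between these libraries, which may be technical. The groups compared, the 27 lists and the rule for named genes were chosen with earlier results of these data known, and 3 sterol and fatty acid lists, WT 18 h vs KO 12 h and the difference of responses were added after seeing the data. Named genes were Stra8, up to 15 each way by fold change among those called with libraries that do not overlap and at least 5 CPM in either group, up to 4 a list by p, up to 3 each way for each set from other libraries, and up to 5 each way changed in WT alone; gene models with no proper name were only counted, and some genes the rule names are not reported here. Alternatives were DESeq2 1.42.0, its size factors, other filters, fewer libraries, a replicate block and leaving out each of 8 libraries.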

Additional observations from a re-analysis of the deposited data

Results flagged for a closer look

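The change from 0 h was compared between the genotypes, as KO 18 h minus KO 0 h less WT 12 h minus WT 0 h, a comparison added after seeing the data. By edgeR's test of this difference 20 of 17519 genes (0.114%) passed, 12 with a higher and 8 with a lower response in KO. Without KO 18 h replicates 1 and 2 the count was 3 and 12, and without WT 12 h replicates 1 and 2 it was 11 and 2. In log2 units the difference was above 0 for Mycn (2.04 ± 0.27, SE), Bcor (2.48 ± 0.37), Abcd2 (2.87 ± 0.46), Esr1 (2.85 ± 0.53), Pla2g7 (2.66 ± 0.45), Sall3 (2.84 ± 0.58) and Cass4 (3.24 ± 0.58). It was above 0 also for Amotl1 (1.83 ± 0.33), Enc1 (1.82 ± 0.34), Jph4 (1.96 ± 0.34), Spryd3 (1.42 ± 0.29) and Pramef12 (1.59 ± 0.28).

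The difference was below 0 for the sterol genes Hmgcs1 (-1.51 ± 0.28), Lss (-1.86 ± 0.32), Mvd (-1.84 ± 0.21) and Mvk (-2.06 ± 0.42), whose levels were low at 18 h in WT cells as well. It was below 0 also for Ccne1 (-1.67 ± 0.32), Slc9a5 (-1.93 ± 0.39), Mpped1 (-1.91 ± 0.38) and Gpr153 (-2.03 ± 0.39), an orphan receptor gene with 7.14 and 7.17 CPM in KO 18 h against 19.3 and 21.9 CPM in WT 12 h cells. The times differ between the genotypes in this test too, so genotype and time cannot be told apart in it.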

How the results depend on the processing

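With 2 libraries a group, counts of calls depend on single libraries. The sign of all 451 genes was the same in each leave-out. That was given in advance, because their KO 18 h and WT 12 h libraries do not overlap. For genes that were not called and whose libraries overlap, such as Kit and Rec8, the sign can depend on the library left out. Without a filter on low counts the genes called were 731 for KO 18 h vs WT 12 h (447 higher, 284 lower), 465 for KO 12 h vs WT 12 h, 33 for KO 18 h vs KO 12 h, 118 for WT 18 h vs WT 12 h and 117 for the difference of responses. With the 12 and 18 h libraries only they were 843 (517 and 326), 392, 12 and 114, and the sets from other libraries gave 34 for the 22, 70 for the 36 and 249 for the 161. DESeq2 called 322 for KO 12 h vs WT 12 h, 21 for KO 18 h vs KO 12 h, 114 for WT 18 h vs WT 12 h and 90 responses. Without KO at 72, 96 and 120 h there were 13 responses.

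With the replicate number as a block, 269 genes were lower in KO 18 h than in WT 12 h cells, and KO 12 h vs WT 12 h gave 315, WT 18 h vs WT 12 h 75 and responses 44. Same-numbered libraries deviated together within WT (correlation 0.258 to 0.517) and not between KO 18 h and WT 12 h (-0.124). With KO numbers crossed in the block, as in the CPM tables and chosen after seeing the data, counts were 701 (297 lower), 329, 89 and 48, and the 36 became 65.

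With 1 library left out, ranges were 75 to 122 genes higher, 14 to 52 lower and 102 to 154 in all for KO 18 h vs WT 12 h. They were 18 to 67 for KO 12 h vs WT 12 h, 2 to 6 for KO 18 h vs KO 12 h, 2 to 36 for WT 18 h vs WT 12 h, 183 to 356 for KO 18 h vs WT 18 h, 397 to 657 for WT 18 h vs KO 12 h and 2 to 12 responses. Against WT 0, 48, 72, 96 and 120 h they were 464 to 572, 665 to 770, 1183 to 1333, 2351 to 2732 and 2889 to 3119. For lists they were 0 to 0 of the 4 replication genes, 3 to 7 of the 10 cholesterol genes, 1 to 3 of the 8 undifferentiated genes, 50 to 77 of the 148, 1 to 7 of the 36, 23 to 34 of the 48, 10 to 17 of the 25, 51 to 81 of the 161, 7 to 12 of the 24 and 3 to 7 of the 22.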
